A study of Mus musculus with 6 samples.

Results

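The genes described here are the axon guidance families and the Dpysl genes, chosen by gene symbol: the semaphorins, plexins, neuropilins, ephrins, Eph receptors, Slits, Robos, netrins, Unc5 receptors, and the Dpysl genes with Crmp1. The rule found 73 of the 55055 genes in the deposited table. Their RNA was measured by poly(A) sequencing of the myometrium, the smooth muscle wall of the uterus, of late pregnant mice. KO animals (TCF23 KO), made with CRISPR/Cas9, lack Tcf23, a gene for a transcription factor of the basic helix-loop-helix class. WT animals (TCF23 WT) are wild type at that gene. There were 3 KO and 3 WT libraries, each from a different animal, and all were at E19.5 in the sample labels. The sources used here do not give the strain, the part of the gene that was edited, the number of founder lines or the genotype of the fetuses.

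Axon guidance proteins were named for steering growing nerve fibres, and they also act between cells of blood vessels, epithelia and smooth muscle. Semaphorins signal through plexins, with neuropilins as co-receptors for most secreted class 3 semaphorins. Ephrins are membrane-bound ligands of the Eph receptor tyrosine kinases, Slits are secreted ligands of Robo receptors, and netrins bind Dcc-type and Unc5 receptors. The Dpysl proteins, also called collapsin response mediator proteins, are cytoplasmic, bind tubulin and relay semaphorin signals to the cytoskeleton.

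The KO label was checked first: Tcf23 had 0, 2 and 1 counts in KO replicates 1, 2 and 3, against 4203, 5970 and 3360 counts in WT replicates 1, 2 and 3. Libraries held 39939686 to 65036402 counts in KO and 47345181 to 55236312 in WT. The KO libraries differed in tissue content. The smooth muscle list summed to 35402, 40727 and 15994 CPM in KO replicates 1, 2 and 3, against 33269, 32636 and 27989 CPM in WT replicates 1, 2 and 3 (CPM divides counts by the scaled library size). Summed placental and fetal membrane markers were 453, 75.8 and 20.2 CPM in KO replicates 1, 2 and 3, against 71.1, 52.0 and 59.1 CPM in WT replicates 1, 2 and 3. Summed uterine epithelial markers were 3087, 1175 and 4874 CPM in KO replicates 1, 2 and 3, against 2650.2, 1844 and 4043 CPM in WT replicates 1, 2 and 3. KO replicates 1 and 3 therefore stood apart in placental and muscle markers, and values without each of them are given where they change a statement. The sums of other lists separated the genotypes, although most of their genes did not do so singly. Decidual and endometrial stromal markers summed to 576, 509 and 464 CPM in KO replicates 1, 2 and 3, against 343, 339 and 377 CPM in WT replicates 1, 2 and 3, and all 7 tested genes of that list had log2 changes of 0.00 or more. Mesothelial markers summed to 110.3, 127 and 85.4 CPM in KO replicates 1, 2 and 3, against 301, 178 and 151 CPM in WT replicates 1, 2 and 3. Their log2 changes were negative for 8 of 8 genes, 5 at an unadjusted p under 0.05, where 3.29% of all tested genes were lower. Every KO library was above every WT library for 2 of the 7 decidual genes, and below for 1 of the 8 mesothelial genes. Among all tested genes, 7.22% were above and 7.01% below in this way. By median log2 CPM relative to the WT mean, mesothelial markers overlapped. They stood at −1.89, −1.80 and −1.43 in KO replicates 1, 2 and 3, against 1.43, 0.36 and −1.81 in WT replicates 1, 2 and 3. The part of both lists in the differences of the guidance genes was not tested. In bulk tissue, fewer cells of a type and less RNA per cell cannot be told apart.

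Of the 73 guidance genes, 67 had enough counts to be tested, and none of these passed only through the counts of 1 genotype. None of the 67 passed edgeR's quasi-likelihood test at an adjusted p under 0.05, where 4 of 19599 genes (0.0204%) passed. At an unadjusted p under 0.05, 6 were higher and 1 was lower in KO myometrium, which is 10.4% of the 67, against 8.56% of all tested genes (5.27% higher and 3.29% lower). The KO and WT libraries did not overlap for 10 of the 67 (14.9%), 8 higher and 2 lower in KO, against 14.2% of all tested genes (7.22% higher and 7.01% lower). Both shares are near the background. The count of 7 at an unadjusted p under 0.05 became 2 without WT replicate 1, 4 without WT replicate 2 or 3, 11 without KO replicate 2 and 12 without KO replicate 1 or 3. Fitted log2 changes were positive for 48 and negative for 19, with a median of 0.13, beside a median of 0.01 over all tested genes. DESeq2 called 1 guidance gene, Dpysl5, higher in KO, where it called 1.84% of all genes that received an adjusted p (1.19% higher and 0.646% lower). With the replicate number as a block, edgeR called none of the guidance genes and 7 genes in all (0.0357%). At an unadjusted p under 0.05 the block gave 10 guidance genes, 7 higher and 3 lower: Plxna4, Plxnd1, Sema3a and Unc5b were added and Epha3 was lost.

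**Figure D1:**
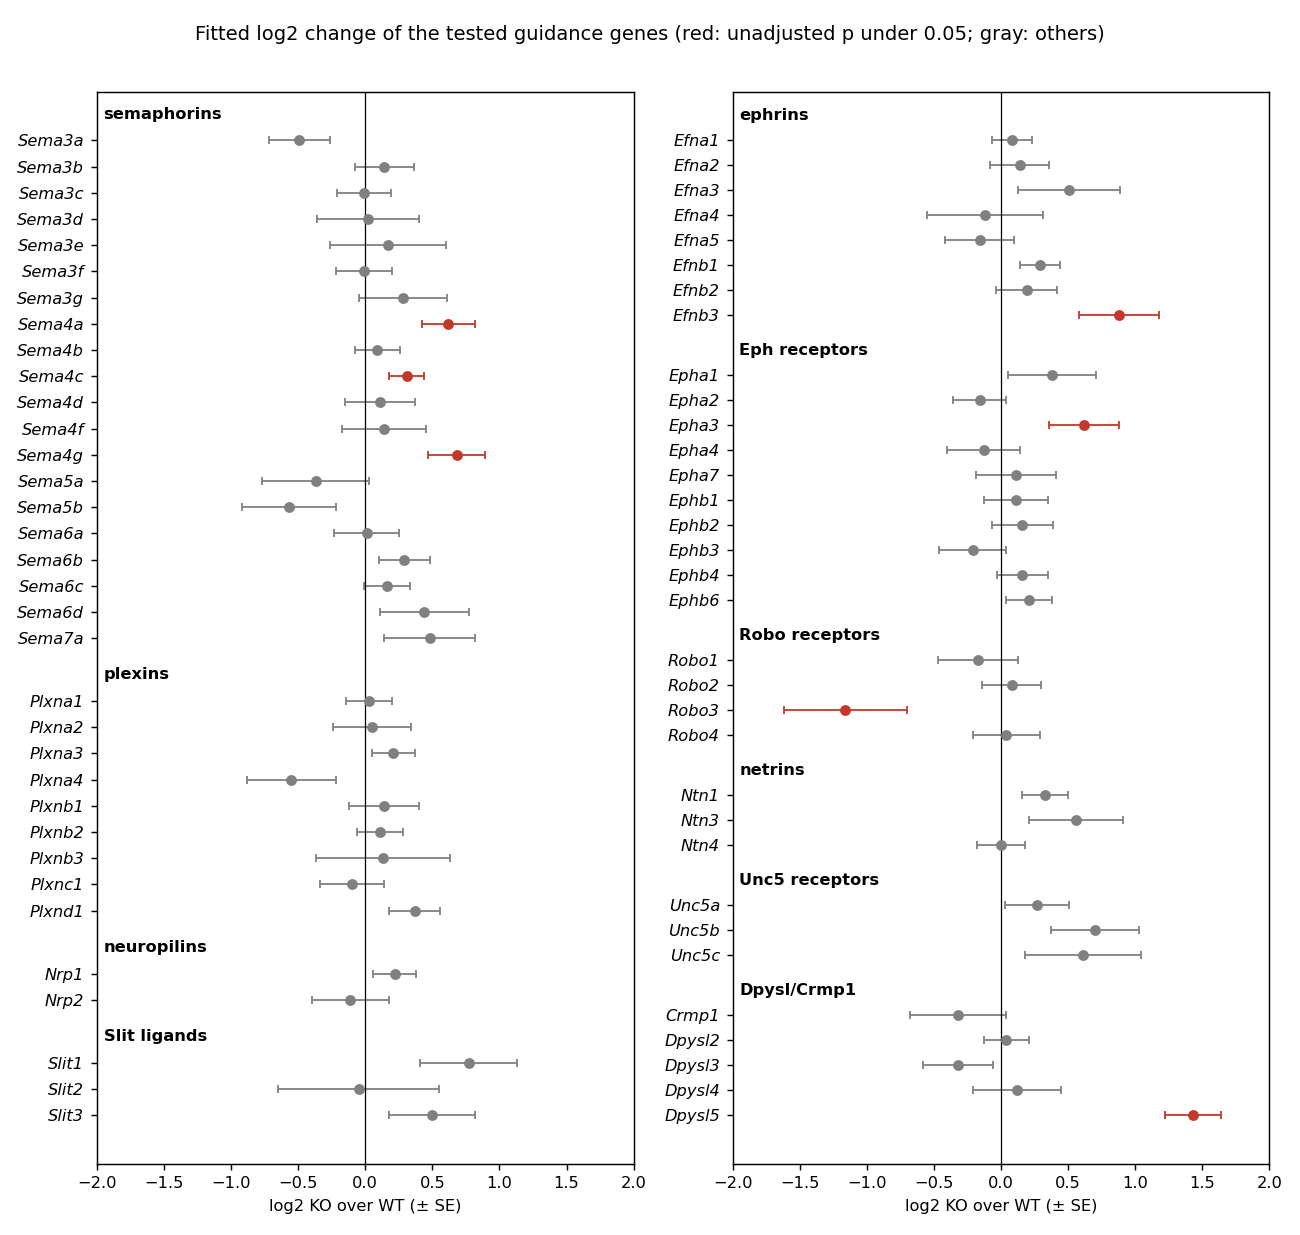
Fitted log2 change of each tested guidance gene, KO over WT, with its standard error, by family; red marks an unadjusted p under 0.05. Dpysl5, at 1.43, has the highest log2 change and Robo3, at −1.16, the lowest, and most of the other genes lie close to 0 beside their errors.

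Dpysl5 showed the clearest difference of the families. Dpysl5 (ENSMUSG00000029168, mm10 chromosome 5, 30711564 to 30799375, plus strand), known in the nervous system as Crmp5, regulates neurite outgrowth. It had 12.7, 11.9 and 14.1 CPM in KO libraries, against 3.62, 5.07 and 5.66 CPM in WT libraries. The lowest KO value was more than the highest WT value, with an SD of 1.14 CPM in KO and 1.05 CPM in WT. The fitted difference was 2.70-fold (log2 1.43 ± 0.21 SE, edgeR adjusted p = 0.117), while DESeq2 gave it an adjusted p of 4.66e-07. By edgeR's unadjusted p it ranked 28 among the 19599 tested genes. With any 1 library left out, its log2 change stayed within 1.27 to 1.57, and the edgeR adjusted p ran from 0.118 to 0.574.

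The sequence before the start of Dpysl5 is shown because many basic helix-loop-helix proteins bind the E-box, CANNTG. Whether Tcf23 is among them was not tested here. RefSeq (GRCm38.p6) gives these 250 bases, 5′ to 3′ on the plus strand, chr5:30711314-30711563, with E-box letters in capitals.
Dpysl5: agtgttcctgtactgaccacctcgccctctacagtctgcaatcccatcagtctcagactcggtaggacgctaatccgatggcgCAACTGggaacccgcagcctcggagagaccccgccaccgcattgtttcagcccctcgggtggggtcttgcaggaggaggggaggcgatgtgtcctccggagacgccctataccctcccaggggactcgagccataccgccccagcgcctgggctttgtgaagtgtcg
Sema4a, a semaphorin gene with higher values in KO, is shown for comparison, on the minus strand at chr3:88461183-88461432.
Sema4a: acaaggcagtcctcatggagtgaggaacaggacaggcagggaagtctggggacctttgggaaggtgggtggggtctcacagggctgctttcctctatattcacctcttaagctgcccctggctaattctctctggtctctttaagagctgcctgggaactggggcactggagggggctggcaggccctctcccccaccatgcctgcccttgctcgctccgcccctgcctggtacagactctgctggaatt
The Dpysl5 window holds 1 match to CANNTG, which reads the same on both strands, and this Sema4a window holds 0. RefSeq gives Sema4a 4 windows, of which another, at chr3:88459102-88459351, holds 2 matches, and the single window of Sema4g holds 1. Of all 32851 RefSeq windows of this length 66.2% hold at least 1 match. By gene, counting any window of a gene, 34 of the 61 guidance genes with a window (55.7%) and 69.3% of all genes held a match. A match describes the letters only, and binding of Tcf23 to DNA was not measured here.

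The other Dpysl genes and Crmp1 had log2 changes from −0.32 to 0.12, none with an unadjusted p under 0.05. Dpysl3, the most abundant of them per length, had 29.2 ± 10.2 FPKM in KO and 36.5 ± 5.70 FPKM in WT (FPKM is CPM per kilobase of exon; SD, n = 3 each). Its libraries read 157, 271 and 151 CPM in KO libraries, against 279.8, 238 and 205 CPM in WT libraries, so the genotypes overlapped (log2 −0.32 ± 0.26 SE, edgeR adjusted p = 0.835). With any 1 library left out, the log2 change of Dpysl3 stayed within −0.64 to −0.17. It was lowest without KO replicate 2 (−0.64 ± 0.17 SE, edgeR adjusted p = 0.233). Dpysl2, a tubulin-binding mediator of semaphorin 3A signals, had 72.6, 57.4 and 62.9 CPM in KO libraries, against 74.2, 62.7 and 50.6 CPM in WT libraries (log2 0.04 ± 0.17). Dpysl4 had 2.24, 3.46 and 1.61 CPM in KO libraries, against 2.29, 2.64 and 1.80 CPM in WT libraries, and KO replicate 2 was the highest of all (0.12 ± 0.33 on the log2 scale). Crmp1 was near 1 CPM throughout, with 1.24, 1.03 and 0.683 CPM in KO libraries, against 1.76, 1.02 and 0.946 CPM in WT libraries (log2 −0.32 ± 0.36). Of the 5 genes, then, Dpysl5 alone had non-overlapping genotypes. Its level per length, 1.75 ± 0.154 FPKM in KO and 0.648 ± 0.142 FPKM in WT, was below those of Dpysl3 and Dpysl2 in both genotypes.

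Dpysl proteins are best known in neurons, and neuron markers were measured beside Dpysl5. The summed neuron list was 52.2, 74.2 and 34.6 CPM in KO replicates 1, 2 and 3, against 76.3, 75.3 and 50.4 CPM in WT replicates 1, 2 and 3, with overlapping genotypes. Of its 12 genes 5 had enough counts to be tested, at mean levels of 0.116 to 30.4 FPKM. Of these 5, 2 had a positive and 3 a negative log2 change (median −0.36). Th, Snap25 and Elavl4, which mark neurons, had 0 to 2 counts in each library. Summed markers of Schwann cells, the glia of peripheral nerve, overlapped as well (383 to 457 CPM in KO libraries, against 413 to 461 CPM in WT libraries), although most of that sum is Pmp22 and Ngfr, which other cells also express. Sox10, a defining Schwann cell gene, had 3 to 16 counts per library. Which cells held the Dpysl5 RNA was not tested.

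Dpysl5 lies on the same chromosome as Tcf23, and its end is 169 kb before the start of the edited gene. Of 30 tested genes within 500 kb of Tcf23 on either side, 24 had positive and 6 negative log2 changes, with a median of 0.13. Over all 19599 tested genes, 10207 were positive and 9392 negative, with a median of 0.01. At an unadjusted p under 0.05, 3 were higher in KO (Dpysl5, Gm42798 and Fndc4) and none was lower, where 5.27% of all tested genes were higher; edgeR called none of the 30 over all genes and DESeq2 called Dpysl5 only. Fndc4, which encodes a secreted fibronectin domain protein, lies 315 kb past Tcf23 and had 9.68, 7.88 and 7.41 CPM in KO libraries, against 5.77, 5.40 and 4.80 CPM in WT libraries (log2 0.65 ± 0.18 SE, edgeR adjusted p = 0.362). Gm42798, 233 kb past it, had 0.684, 0.721 and 0.634 CPM in KO libraries, against 0.472, 0.385 and 0.375 CPM in WT libraries (log2 0.73 ± 0.27). It had only 20 to 44 counts per library and lies within the span of Ppm1g, on the same strand. Ppm1g had a log2 change of 0.13 ± 0.16, and whether reads of Gm42798 come from Ppm1g was not tested. Kcnk3, a potassium channel gene 343 kb before Tcf23, named after its values were seen, had a log2 change close to that of Dpysl5. It had 3.53, 1.51 and 0.634 CPM in KO libraries, against 0.943, 0.694 and 0.624 CPM in WT libraries (log2 1.34 ± 0.58 SE, edgeR adjusted p = 0.586), with overlapping genotypes and KO replicate 1 far the highest; the log2 change without any 1 library ran from 0.53 to 1.74. The nearest tested gene, Preb, 8 kb away, had a log2 change of −0.19 ± 0.16. The tested genes on either side of Dpysl5, Mapre3 and Cenpa, had log2 changes of −0.04 ± 0.19 and 0.00 ± 0.21. Loss of the Tcf23 protein and an effect of the edit on its surroundings cannot be told apart in this design.

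**Figure D2:**
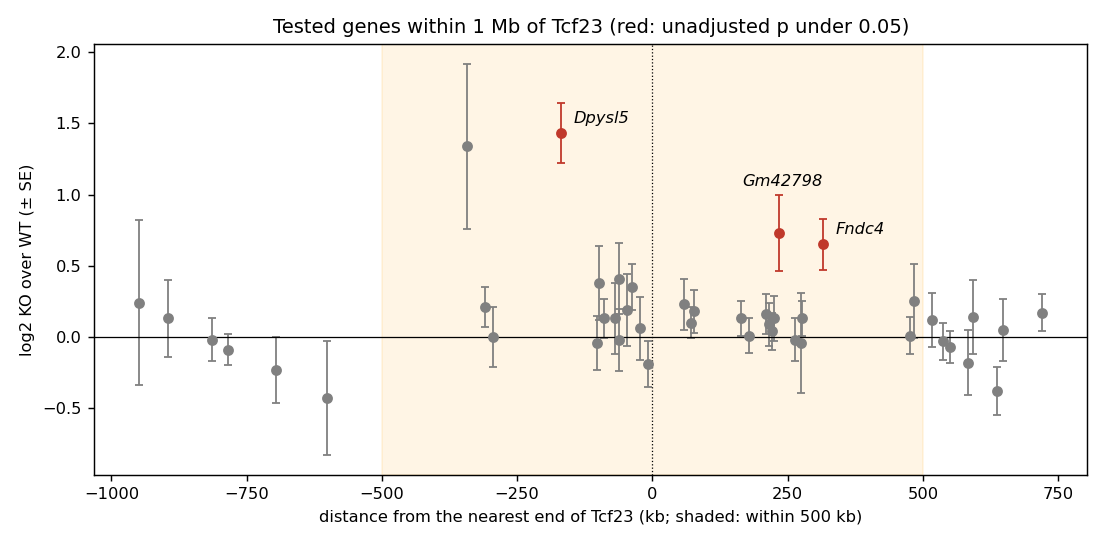
Log2 change, KO over WT, with its standard error, of each tested gene within 1 Mb of Tcf23, by distance in kb from the nearest end of Tcf23; red marks an unadjusted p under 0.05 and shading the 500 kb window. Dpysl5 stands at 1.43 and Kcnk3, with a wider error, at 1.34, while most other neighbours lie near 0.

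Class 4 semaphorins, membrane-bound ligands known from immune cells, epithelia and vessels, held 3 of the 6 higher guidance genes. All 6 class 4 genes had positive log2 changes (0.09 to 0.68), as had 10207 of all 19599 tested genes. Of the 6, 3 had an unadjusted p under 0.05 with non-overlapping genotypes, while none passed over all genes. Among all tested genes, 5.27% were higher in KO at that p, and 7.22% had every KO library above every WT library. No test of the class as a set was made. Sema4g (ENSMUSG00000025207, chromosome 19, 44989101 to 45003397, plus strand) had 20.7, 15.6 and 22.2 CPM in KO libraries, against 10.2, 10.8 and 15.4 CPM in WT libraries (log2 0.68 ± 0.21 SE, edgeR adjusted p = 0.409). Its KO values all lay above the WT values, by a narrow margin between KO replicate 2 and WT replicate 3. Sema4a (ENSMUSG00000028064, chromosome 3, 88435959 to 88461182, minus strand), a ligand that acts on T cells and on vessels, had 85.4, 81.3 and 123 CPM in KO libraries, against 51.7, 66.4 and 70.3 CPM in WT libraries (log2 0.62 ± 0.20 SE, edgeR adjusted p = 0.423). The highest value was KO replicate 3, which also held the highest epithelial marker sum, and without that library the log2 change was 0.41. Sema4c (ENSMUSG00000026121, chromosome 1, 36548639 to 36558349, minus strand), a ligand of plexin B2, had 26.5, 26.4 and 23.3 CPM in KO libraries, against 21.3, 21.9 and 18.6 CPM in WT libraries (log2 0.31 ± 0.13 SE, edgeR adjusted p = 0.566). Its difference was the smallest of the 3, and the spread within each genotype was narrow. Exons of Sema4c overlap those of D430040D24Rik on the other strand, whose counts were 9.06% of those of Sema4c. Summed leukocyte markers were 581, 510.2 and 592 CPM in KO replicates 1, 2 and 3, against 413, 540.5 and 401 CPM in WT replicates 1, 2 and 3, overlapping at WT replicate 2. All 10 leukocyte genes had positive log2 changes (median 0.29), and 3 had an unadjusted p under 0.05, where 5.27% of all tested genes were higher. Of 10 uterine epithelial genes, 6 had positive and 4 negative log2 changes (median 0.02). The part of leukocytes and epithelium in the differences of the class 4 genes was not tested.

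The secreted class 3 semaphorins had log2 changes on both sides of 0. Sema3c, which repels or attracts cells through neuropilins and plexins, had the highest level per length of all the guidance genes, 58.8 ± 14.0 FPKM in KO and 59.2 ± 4.19 FPKM in WT (SD, n = 3 each). Its libraries read 311, 508 and 440.4 CPM in KO libraries, against 421, 393 and 453 CPM in WT libraries, with KO replicate 1 the lowest and KO replicate 2 the highest, and the fitted log2 change was −0.01 ± 0.20. The sign of that change turned with the scaling, being 0.02 under upper-quartile scaling. The other 6 class 3 genes had log2 changes from −0.49 (Sema3a, the classic repellent of sensory axons) to 0.28 (Sema3g), all with overlapping genotypes. Of the remaining semaphorins, Sema5a and Sema5b were negative and Sema6a, Sema6b, Sema6c, Sema6d and Sema7a were positive, none with an unadjusted p under 0.05. Sema5b was the single semaphorin with every KO library below every WT library, with 4.93, 4.98 and 1.95 CPM in KO libraries, against 6.24, 5.95 and 5.42 CPM in WT libraries (log2 −0.57 ± 0.35).

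**Figure D3:**
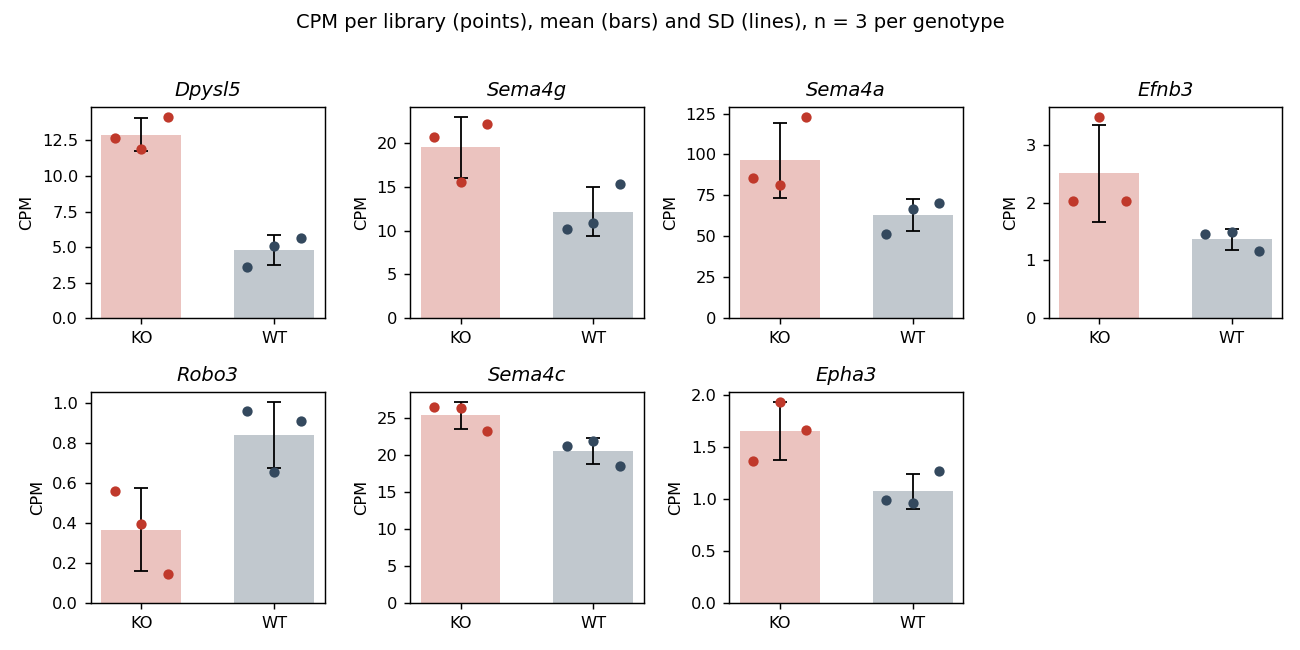
CPM in each library (points), mean (bars) and SD (lines) for the 7 guidance genes with an unadjusted p under 0.05, KO left of WT, n = 3 each. KO points lie above all WT points for 6 genes and below them for Robo3.

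Among the receptors of the semaphorins, no plexin or neuropilin had an unadjusted p under 0.05 without the replicate block; with it, Plxnd1 (log2 0.35, edgeR adjusted p = 0.442) and Plxna4 (log2 −0.62, edgeR adjusted p = 0.41) did. Plxnb2, a receptor for class 4 semaphorins, was second only to Sema3c in level per length, at 46.8 ± 6.41 FPKM in KO and 43.3 ± 6.12 FPKM in WT. It had 323, 344 and 417 CPM in KO libraries, against 296, 319.7 and 387 CPM in WT libraries (log2 0.11 ± 0.17), and the spread within each genotype exceeded the difference. Plxnd1, a vascular plexin that binds semaphorin 3E, had the smallest p of its family, with 63.4, 90.1 and 58.6 CPM in KO libraries, against 54.5, 61.0 and 49.0 CPM in WT libraries (log2 0.37 ± 0.19 SE, edgeR adjusted p = 0.681). KO replicate 2 carried most of that difference, and without it the log2 change was 0.16. Nrp1, co-receptor for class 3 semaphorins and for vascular endothelial growth factor, had 39.4, 55.2 and 51.4 CPM in KO libraries, against 38.8, 46.1 and 40.8 CPM in WT libraries (log2 0.22 ± 0.16). Nrp2, the more abundant neuropilin per length, had 91.9, 179.6 and 103 CPM in KO libraries, against 147, 156 and 101 CPM in WT libraries (log2 −0.11 ± 0.29), again with KO replicate 2 highest. The 9 plexins ran from a log2 change of −0.55 (Plxna4) to 0.37 (Plxnd1).

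The ephrins and their receptors were mostly near WT levels, with Efnb3 and Epha3 the exceptions at an unadjusted p under 0.05. Efnb3 (ENSMUSG00000003934, chromosome 11, 69554092 to 69560205, minus strand), a transmembrane ephrin known for guiding motor tract axons, had 2.02, 3.48 and 2.02 CPM in KO libraries, against 1.46, 1.48 and 1.16 CPM in WT libraries (log2 0.88 ± 0.30 SE, edgeR adjusted p = 0.45). All KO values were above the WT values, and KO replicate 2 was the highest; without that library the log2 change was 0.57. Epha3 (ENSMUSG00000052504, chromosome 16, 63543534 to 63864158, minus strand), a receptor for A-type ephrins, was rare, with 1.37, 1.93 and 1.66 CPM in KO libraries, against 0.986, 0.964 and 1.27 CPM in WT libraries (log2 0.62 ± 0.26 SE, edgeR adjusted p = 0.568). The gap between its lowest KO and highest WT value was smaller than the range within KO. The most abundant ephrin per length was Efna1, an A-type ephrin of endothelium and epithelium, at 15.1 ± 1.87 FPKM in KO and 14.2 ± 1.60 FPKM in WT. Its libraries read 24.9, 26.3 and 31.4 CPM in KO libraries, against 27.1, 22.8 and 28.3 CPM in WT libraries (log2 0.08 ± 0.15). The most abundant receptor was Ephb4, which marks veins, with 70.9, 90.4 and 59.8 CPM in KO libraries, against 73.1, 70.6 and 53.9 CPM in WT libraries (log2 0.16 ± 0.19). Efnb2, the arterial partner of Ephb4, had a log2 change of 0.19 ± 0.23. The genotypes overlapped for all 3. Of the 8 ephrins 6 were positive and 2 negative, and of the 10 tested Eph receptors 7 were positive and 3 negative. Epha5, Epha6, Epha8 and Epha10 had 1 to 5 counts in all 6 libraries together and were not tested. Epha1 counts are uncertain: its exons overlap those of Zyx, whose counts were 2736% of those of Epha1, and no source used here says whether reads were counted by strand.

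Robo3 had the lowest log2 change among the guidance genes, at a very low level. Robo3 (ENSMUSG00000032128, chromosome 9, 37416045 to 37433246, minus strand), a receptor that lets commissural axons cross the midline, had 0.560, 0.397 and 0.146 CPM in KO libraries, against 0.965, 0.655 and 0.910 CPM in WT libraries (log2 −1.16 ± 0.46 SE, edgeR adjusted p = 0.542). Every KO library was below every WT library, and KO replicate 3 was the lowest; the log2 change without any 1 library ran from −1.58 to −0.81. Robo4, the endothelial Robo and the most abundant per length, had 32.3, 51.7 and 26.1 CPM in KO libraries, against 40.9, 32.9 and 33.1 CPM in WT libraries, with overlapping genotypes and a log2 change of 0.04 ± 0.25. The sign of that change is not settled, being −0.01 with the replicate block. Robo1 and Robo2, the main Slit receptors, had log2 changes of −0.17 ± 0.30 and 0.08 ± 0.22. Among the ligands, Slit3 was by far the most abundant per length, at 21.5 ± 9.77 FPKM in KO and 15.2 ± 3.25 FPKM in WT. It had 83.4, 197 and 110.3 CPM in KO libraries, against 81.1, 115 and 80.3 CPM in WT libraries (log2 0.50 ± 0.32 SE, edgeR adjusted p = 0.771), and without KO replicate 2 its log2 change was 0.08. Slit1 was rare, with every KO value above every WT value: it had 1.73, 0.920 and 1.02 CPM in KO libraries, against 0.493, 0.867 and 0.785 CPM in WT libraries (log2 0.77 ± 0.36 SE, edgeR adjusted p = 0.618). Without KO replicate 1 its log2 change was 0.44. Slit2 varied more within genotypes than between them, with 4.32, 18.6 and 5.90 CPM in KO libraries, against 16.3, 6.38 and 7.21 CPM in WT libraries (log2 −0.05 ± 0.60).

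Netrin-1 was one of the most abundant guidance ligands of the myometrium. Ntn1 had 45.2 ± 8.44 FPKM in KO and 36.0 ± 1.59 FPKM in WT (SD, n = 3 each). Its libraries read 234, 277 and 339 CPM in KO libraries, against 217, 224 and 237 CPM in WT libraries (log2 0.33 ± 0.17 SE, edgeR adjusted p = 0.68), with KO replicate 1 inside the WT range and the other KO libraries above it. Without KO replicate 3 the log2 change was 0.18. Unc5b, a netrin receptor of blood vessels, had 16.4, 31.6 and 15.00 CPM in KO libraries, against 15.01, 14.7 and 9.12 CPM in WT libraries (log2 0.70 ± 0.33 SE, edgeR adjusted p = 0.622). The difference rested largely on KO replicate 2, without which the log2 change was 0.28. With the replicate block its log2 change was 0.65 (edgeR adjusted p = 0.365). Ntn4, a netrin of basement membranes, had nearly equal levels, with 22.8, 31.0 and 31.8 CPM in KO libraries, against 31.1, 31.4 and 23.4 CPM in WT libraries. Unc5a and Unc5c had positive log2 changes (0.27 ± 0.24 and 0.61 ± 0.43), and Unc5d, with 7 counts in all, was not tested. Ntn5 was not tested either; it had 8, 7 and 13 counts in KO libraries, against 3, 6 and 6 in WT libraries, and the counts of genes that overlap its exons were 374% of its own. Exons of Ntn3 and Unc5a also overlap other genes, with counts of 456% and 143% of their own.

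**Figure D4:**
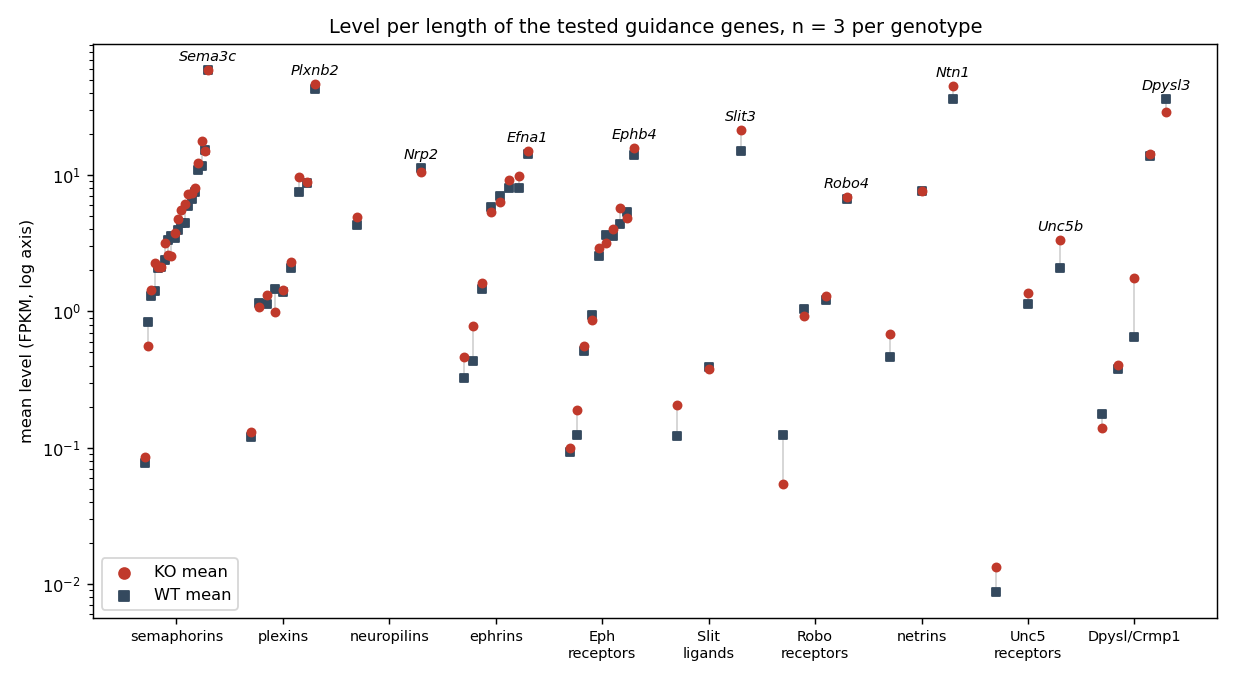
Mean level in FPKM (log axis) of each tested guidance gene by family, KO as red circles and WT as dark squares, n = 3 each; the most abundant gene of each family is named. Sema3c, Plxnb2 and Ntn1 lead, and the KO and WT means of most genes nearly coincide.

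Ranked per length over all 6 libraries, the guidance genes spanned 0.011 to 59.0 FPKM with a median of 2.98, close to the median of 2.94 over all tested genes. After Sema3c, Plxnb2, Ntn1 and Dpysl3 came Slit3, Sema3f (15.2 ± 4.01 FPKM in KO and 15.3 ± 1.62 FPKM in WT) and Ephb4 (15.9 ± 3.33 FPKM in KO and 14.2 ± 2.25 FPKM in WT). The first 3 of this order overlapped in their SDs in KO, while in WT Sema3c lay above the others by more than its SD. Ephb4, Sema3f and Sema4a (17.9 ± 4.24 FPKM in KO and 11.6 ± 1.81 FPKM in WT) did not differ beyond their SDs in KO.

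The guidance genes varied more among KO than among WT animals, as did genes at large. The SD of log2 CPM was larger in KO than in WT for 54 of the 67 tested guidance genes (80.6%), and for 75.9% of all tested genes. The median SD was 0.41 in KO and 0.23 in WT for the guidance genes, against 0.32 and 0.17 over all tested genes. KO replicate 2 was the highest of the 6 libraries for 27 guidance genes (40.3%), where it was so for 22.2% of all tested genes. KO replicate 3 was the highest for 22 (32.8%, against 21.3%) and KO replicate 1 for 6 (8.96%, against 23.3%). The genes that peaked in KO replicate 2 included Unc5b, Efnb3 and Slit3. Another was Sema3e, picked after its values were seen, with 68.2, 206 and 68.5 CPM in KO libraries, against 118, 92.7 and 92.6 CPM in WT libraries (log2 0.17 ± 0.43). In that library summed endothelial markers were also the highest, 701, 927 and 504 CPM in KO replicates 1, 2 and 3, against 787, 701 and 648 CPM in WT replicates 1, 2 and 3. Summed pericyte markers were also the highest there, 573, 884 and 401 CPM in KO replicates 1, 2 and 3, against 533, 473 and 485 CPM in WT replicates 1, 2 and 3. Both sums were the lowest in KO replicate 3. Epithelial markers were the lowest in KO replicate 2. The part of these marker lists in these levels was not tested. Genes that peaked in KO replicate 3 included Epha1, Sema4a, Sema4d and Sema4g, and that library had the highest epithelial sum.

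**Figure D5:**
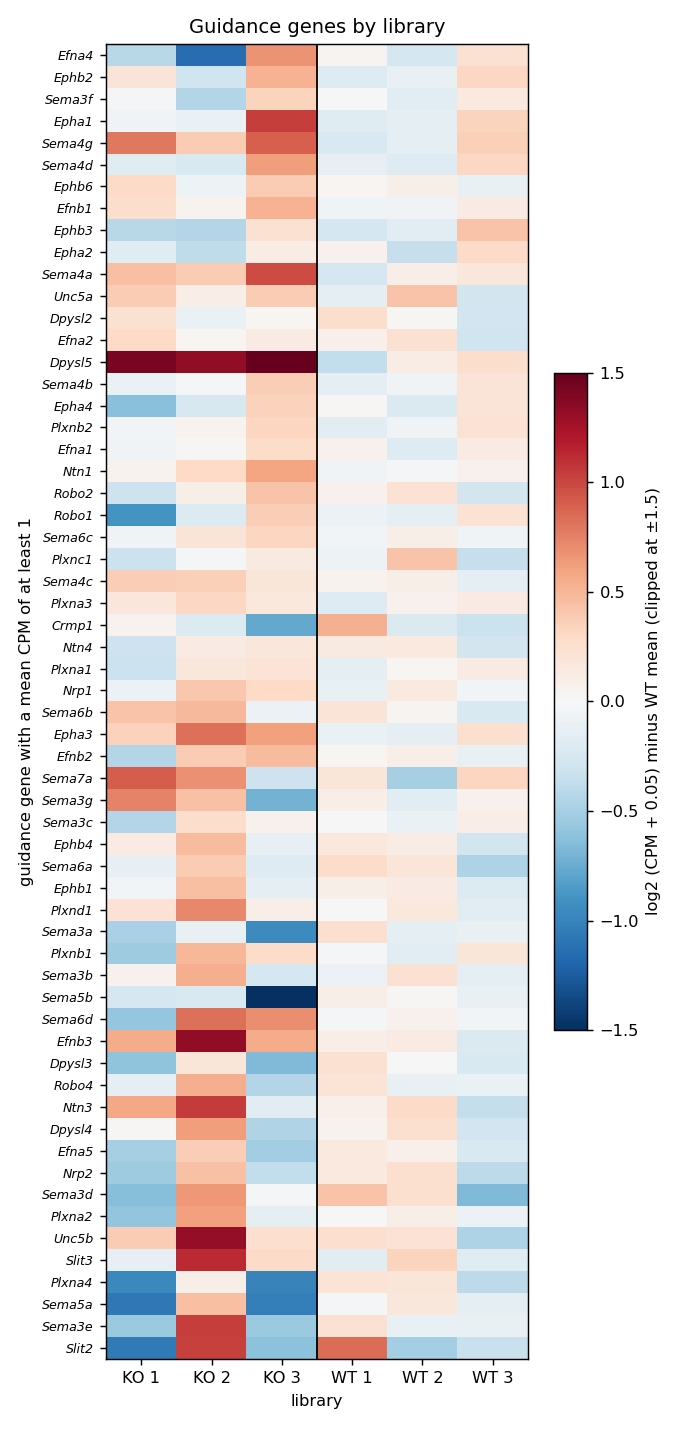
Log2 of CPM plus 0.05, relative to the WT mean, for the 60 guidance genes with a mean CPM of at least 1, by library, ordered by how far KO replicate 2 lies above the other KO libraries (lowest at the top). Dpysl5 is raised in all 3 KO libraries, while genes at the bottom are raised in KO replicate 2 and mostly not in KO replicates 1 and 3.

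Genes that act with these families were examined next. Of 102 co-receptors, adaptors and effectors listed by their textbook roles, 98 were tested, 52 with a positive and 46 with a negative log2 change and a median of 0.01. None passed edgeR over all genes, and at an unadjusted p below 0.05 there were 8 higher and 3 lower in KO, 11.2% of the 98 against 8.56% of all tested genes. DESeq2 called 3, all higher in KO, where it called 1.84% of all genes. The first, Cntn1, an immunoglobulin-type adhesion molecule of axons, had 57.5, 44.8 and 30.8 CPM in KO libraries, against 19.7, 16.7 and 17.5 CPM in WT libraries (log2 1.31 ± 0.23 SE, edgeR adjusted p = 0.182; DESeq2 adjusted p = 0.000159). Its genotypes did not overlap. Igdcc4, a relative of the netrin receptor Dcc, had 8.53, 11.4 and 12.5 CPM in KO libraries, against 6.13, 7.15 and 5.48 CPM in WT libraries (log2 0.79 ± 0.20; DESeq2 adjusted p = 0.0406). Cyfip2, a subunit of the actin-regulating WAVE complex whose relative Cyfip1 binds Dpysl2, had 12.2, 12.1 and 14.5 CPM in KO libraries, against 7.70, 6.44 and 9.37 CPM in WT libraries (log2 0.72 ± 0.19; DESeq2 adjusted p = 0.0499).

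In the lists of effectors by pathway, the genes with the smallest p lay on both sides of 0. For semaphorin and plexin signalling it was Limk1, a kinase that inactivates cofilin, with 38.0, 31.8 and 42.1 CPM in KO libraries, against 23.9, 29.96 and 23.3 CPM in WT libraries (log2 0.54 ± 0.16). For Slit and Robo signalling it was Srgap3, a GTPase-activating protein that binds Robo1, with a log2 change of 0.68 ± 0.24 and overlapping genotypes. Rasa1, a Ras GTPase-activating protein bound by Eph receptors, had lower values in each KO library, with 48.5, 63.7 and 55.2 CPM in KO libraries, against 74.8, 75.1 and 65.8 CPM in WT libraries (log2 −0.37 ± 0.14). Flrt2, which binds Unc5 receptors, did too, with 60.3, 72.6 and 88.2 CPM in KO libraries, against 99.97, 157 and 96.8 CPM in WT libraries (log2 −0.68 ± 0.23). For netrin and Unc5 signalling the smallest p was that of Ablim3, an actin-binding protein (log2 −0.30 ± 0.16). None of these 5 passed over all genes; their edgeR adjusted p ran from 0.383 to 0.701.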

How the data were processed

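The authors deposited raw counts per Ensembl gene for each of the 6 libraries and 1 table of normalized values. Per the labels' protocols, libraries were poly(A)-selected and directional. Per the submitters' processing notes, which give no roles, the tools were HISAT2 2.2.1, DESeq2 2.11.40.7, HTSeq 0.9.1 and FastQC 0.73 and the build mm10; the annotation release and strand setting are not stated there. The deposited normalized signal of each library is its counts multiplied by 1 constant (0.804 to 1.26). That table gave symbols and mm10 positions, with starts counted from 1; exon lengths and overlaps come from GENCODE M21.

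The main test of the counts was edgeR 4.0.16 in R 4.3.3 (filterByExpr, TMM, quasi-likelihood F test, Benjamini-Hochberg over 19599 genes, threshold 0.05). Log2 changes are KO over WT, with SE. CPM and FPKM use TMM-scaled library sizes. Alternatives were DESeq2 1.42.0, scaling by RLE or upper quartile, a filter of CPM 1 or more in 3 libraries or none, limma 3.58.1 (voom, and log2 of normalized values plus 1), a robust fit, a replicate block and leaving out each library. The fit was tested on simulated data. The number of animals, 3 per genotype, limits the precision.

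Same-numbered libraries deviated together (correlations, across genes, of their distances from the group mean were 0.147, 0.196 and 0.217). For KO and WT libraries of unlike number the correlations were −0.223 to 0.061. The numbers come from the sample titles, which do not say that equal numbers form a pair. Same-numbered libraries were treated as pairs in the blocked fit only, and the origin of these correlations was not tested. Replicates differed by more than sampling noise (mean chi-square per gene 36.3 to 234). Members, lists and tests were chosen with earlier results of these data known. Genes named with values are those with an unadjusted p under 0.05, those called by either tool, the Dpysl genes, and in each family the most abundant gene and that with the smallest p; from each list of related genes, the one with the smallest p and any called; near Tcf23, those with an unadjusted p under 0.05. Other genes with values were chosen after these were seen.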

Additional observations from a re-analysis of the deposited data

How the results depend on the processing

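No guidance gene passed edgeR under RLE or upper-quartile scaling, the stricter filter, the robust fit, the replicate block, or with any 1 library left out (0 to 0), nor under limma-voom, limma on the normalized values, or an adjusted p under 0.1. The 2 alternatives that called 1 were no filter on low counts and DESeq2, and the gene was Dpysl5 each time (log2 1.42, adjusted p = 0.0193, and log2 1.43, adjusted p = 4.66e-07). Its log2 change was 1.27 to 1.57 over the 16 fits. Over all genes, edgeR's 4 calls became 12 under upper-quartile scaling, 81 with no filter, 378 in DESeq2, 7 with the replicate block, 17 at an adjusted p under 0.1, and 1 to 7 without 1 library. Related genes called were 1 with no filter and 3 in DESeq2, against 0, and 0 to 0 without 1 library. Guidance genes at an unadjusted p under 0.05 numbered 2 to 12 without 1 library, against 7: 2 without WT replicate 1, 4 without WT replicate 2 or 3, 12 without KO replicate 1 or 3 and 11 without KO replicate 2. The cause was not tested. Sema3c changed sign under upper-quartile scaling (0.02), and Robo4 did in limma on normalized values and with the replicate block (−0.01 in both). Without 1 library log2 changes crossed 0 for 33 of the 67 tested guidance genes, among them Slit2 (−0.96 to 0.50), Sema3e (−0.56 to 0.45), Robo1 (−0.52 to 0.11), Robo2 (−0.12 to 0.26), Epha1 (−0.09 to 0.58), Crmp1 (−0.52 to 0.01), Dpysl2 (−0.09 to 0.19), Dpysl4 (−0.21 to 0.34), Efna1 (−0.03 to 0.15), Ephb4 (−0.01 to 0.29), Nrp2 (−0.46 to 0.07), Plxnb2 (−0.01 to 0.23), Robo4 (−0.28 to 0.24) and Sema3c (−0.17 to 0.17). The replicate block changed no call among the guidance genes. For placental markers the log2 difference, KO minus WT, was −0.17 by median log2 score and 1.59 by summed CPM. The scores were 2.43, −0.97 and −1.86 in KO replicates 1, 2 and 3, against 0.24, 0.08 and −0.22 in WT replicates 1, 2 and 3. With that spread in KO, no direction can be given. The number of genes near Tcf23 at an unadjusted p under 0.05 was 3 within 1 Mb and 2 within 250 kb, against 3 within 500 kb.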
